A study of Mus musculus with 192 samples.

Results

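Trim21, Trim25, Trim26, Trim30a, Trim30d and Trim34a, 6 of the 23481 gene symbols in the count table, were chosen by name as members of the tripartite motif (TRIM) family with antiviral roles, with earlier results of these data known, so shares of all genes printed beside their counts are a description. They were followed across all 64 groups of a study of mouse dendritic cells, which take up and present antigen and were grown here from the bone marrow of female C57BL/6J mice aged 6 to 8 weeks with the growth factor GM-CSF at 15 ng/mL. Wells of 100000 cells received ligands of pattern recognition receptors for 6 h, and RNA was read as counts of unique molecular identifiers (UMIs), each of which tags 1 cDNA molecule. The ligands carry the names PAM, LPS (bacterial lipopolysaccharide), HMW, Zymosan (labelled as zymosan depleted), SeV, cGAMP (3',3'-cGAMP, a cyclic dinucleotide) and CpGB. A control group, Ctrl, 7 groups with 1 ligand, 21 with a pair and 35 with a triplet were each measured in 3 libraries. No dose was stated, every group shared the same mouse strain and culture, and the labels do not say whether the 3 libraries of a group came from separate animals or cultures, so p-values measure only the spread between these libraries.

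TRIM proteins are mostly E3 ubiquitin ligases: a RING domain passes ubiquitin to a target, B-box and coiled-coil domains let the protein assemble, and the carboxy-terminal domain selects what is bound. Many TRIM genes are induced by type I interferon, the cytokine that dendritic cells and macrophages release when they sense viral or bacterial nucleic acids or lipopolysaccharide. TRIM21 is a cytosolic antibody receptor that sends antibody-coated virus to the proteasome, TRIM25 is a ligase linked to the RNA sensor RIG-I and a cofactor of the antiviral protein ZAP, and TRIM26 has been tied to the interferon regulators IRF3 and NEMO. Trim30a encodes a brake on NF-kappaB signalling that acts on TAB2, Trim30d is its neighbouring relative, and Trim34a belongs to the same chromosome 7 cluster as both.

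The interferon-stimulated response element is the DNA element through which type I interferon is known to act on its target genes, and its core GAAANNGAAA was searched for on either strand of RefSeq promoter windows (GRCm38.p6, the assembly also called mm10) running from 250 bases before to 50 bases after each annotated start. All 6 members matched the table by symbol, with 7 windows because Trim30a has 2 in the table. Positions are counted from the start used for each window, which for Trim26, Trim30d and Trim34a lies a short way inside the outer end of the annotated gene. The core was present in 5 of the 6 members, against 3.44% of 32851 windows of the same length. Trim25 had no match, so a shorter core, GAAANNGAA, which every match to the longer core also holds, was searched for after that was seen. It was present in all 6 members against 8.56% of windows. The 30 bases around each match are given here, read 5′ to 3′ on the gene's strand, with the matched bases in capitals (2 overlapping or neighbouring matches in Trim21 and Trim26, and the shorter core in Trim25). Only Trim21 carried the motif in the direction of its own transcript, and the others carried its reverse complement.
Trim21: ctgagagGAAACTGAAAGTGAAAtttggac
Trim25: gcccctcctgTTCAGTTTCgattccttcct
Trim26: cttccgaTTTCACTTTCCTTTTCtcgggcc
Trim30a: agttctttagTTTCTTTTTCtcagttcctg
Trim30a, the other start: ttgtttttagTTTCTTTTTCtcagttcctg
Trim30d: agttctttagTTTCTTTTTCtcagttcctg
Trim34a: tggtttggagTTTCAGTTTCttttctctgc

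These stretches lay at chr7:102565447-102565476 (minus strand, bases +7 to +36 from the start) for Trim21, chr11:88999384-88999413 (plus strand, -19 to +11) for Trim25 and chr17:36836979-36837008 (plus strand, -167 to -138) for Trim26. For Trim30a they lay at chr7:104465210-104465239 (minus strand, -46 to -17) and, at its other start, chr7:104446104-104446133 (-8 to +22). For Trim30d the stretch was chr7:104507871-104507900 (minus strand, -51 to -22), and for Trim34a chr7:104244457-104244486 (plus strand, +1 to +30). A gamma-interferon activation site (TTCNNNGAA) and a kappaB site were found in none of the 7 windows, against 8.3% and 8.46% of all windows. A match is a description of the letters and not evidence of a bound factor, and no match says only that these letters are missing from this window.

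Trim30a and Trim30d shared the same 30 bases, and the likeness ran further. The 250 bases before these starts (the outer one for Trim30a), shown here because the 2 genes also moved together across the groups, were 92.7% identical over the aligned positions (227 identical, 18 mismatched, 10 gap positions). Ifi47 followed Trim30a more closely over the group means (Pearson's r 0.980) than Trim30d did (0.974), so moving together was not particular to this pair. Capitals mark the longer core. The first window is chr7:104465194-104465443 and the other chr7:104507850-104508099, both on the minus strand.
Trim30a: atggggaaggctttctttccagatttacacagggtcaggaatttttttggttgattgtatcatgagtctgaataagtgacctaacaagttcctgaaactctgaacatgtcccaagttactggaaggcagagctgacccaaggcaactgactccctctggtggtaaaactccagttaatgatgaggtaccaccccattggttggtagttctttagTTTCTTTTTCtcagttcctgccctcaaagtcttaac
Trim30d: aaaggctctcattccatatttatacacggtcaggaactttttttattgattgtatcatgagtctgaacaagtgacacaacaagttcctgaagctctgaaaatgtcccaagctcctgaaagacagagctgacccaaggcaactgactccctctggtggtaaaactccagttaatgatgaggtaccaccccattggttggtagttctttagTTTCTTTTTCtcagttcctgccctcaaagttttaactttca

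All 6 are protein-coding genes, and 4 of them lie on chromosome 7. RefSeq places Trim21 (gene ID 20821) at chr7:102557920-102565482, Trim30a (20128) at chr7:104409025-104465193 and Trim30d (209387) at chr7:104470014-104507853, all on the minus strand. Trim34a (94094) lies at chr7:104244448-104262244 on the plus strand, Trim25 (217069) at chr11:88999403-89020294 and Trim26 (22670) at chr17:36837123-36859398, also on the plus strand. Near-identical copies limit some of the counts, because the handling of reads that match several genes is not given in the sources used here. Of all 50-base stretches of its annotated transcripts, Trim34a shared 39.8% with Trim34b, and 22.2% in the last 500 bases. Trim34b had no count in any library. Trim30a shared 5.98% with Trim30d, and Trim30d shared 7.49% with Trim30a, Trim30b or Trim30c, shares that rose to 19.9% and 16.9% in the last 500 bases. The other 3 members shared at most 1.08% over whole transcripts, so the values of Trim34a, Trim30a and Trim30d carry more of this uncertainty.

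Library totals ran from 46564 to 610234 UMIs (median 171616.5), and the 3 Ctrl libraries held 61823, 68941 and 89530. All 6 members passed the filter on low counts, which kept 4720 genes. Summed over the 3 Ctrl libraries, Trim21 had 5 UMIs, Trim26 had 7, Trim34a had 8, Trim30d had 15, Trim30a had 33 and Trim25 had 35, so fold changes of the first 3 rest on few molecules. The dendritic cell list held Itgax, H2-Ab1, Cd74, Flt3, Zbtb46 and Ciita. Its summed level was 2728 CPM (counts-per-million, on scaled library sizes) in Ctrl and ranged from 2550 to 3853 over the groups. H2-Ab1 (59353 UMIs over all libraries), Cd74 (32770) and Itgax (10700) carried this sum. Flt3 (95), Zbtb46 (99) and Ciita (160) were nearly absent, so the sum says little about them. The macrophage list (Csf1r, Mertk, Cd68 and Fcgr1) stood at 2270 CPM in Ctrl, 2275 CPM with SeV alone, 1417 CPM with LPS alone and 1488 CPM with CpGB alone. It was lowest, at 872 CPM, in the group with LPS, cGAMP and CpGB, where Trim21 and Trim25 had their highest means. The neutrophil list stood at 507 CPM in Ctrl, 684 CPM with LPS and 689 CPM with PAM. The part of either list in the results was not tested. T cell, B cell and mast cell lists were at or near 0, and Cd3e had no count. Since these are bulk libraries, fewer cells of a type and less RNA per cell cannot be told apart.

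With single ligands, all 6 members were higher with LPS, with SeV and with cGAMP than in Ctrl, 4 were higher with CpGB, 2 with HMW and 1 with PAM. With Zymosan 0 were called (2 at an unadjusted p under 0.05 in edgeR, 0 by DESeq2). A member was called at a p under 0.05 after Benjamini-Hochberg adjustment over all 4720 genes in the quasi-likelihood test of edgeR, together with a log2 fold change of at least 1 in size. The share of all tested genes called higher was 14.6% with LPS, 10.5% with SeV, 11.7% with cGAMP, 10.8% with CpGB, 0.953% with HMW, 8.01% with PAM and 4.43% with Zymosan. The median log2 fold change of the 6 members was 2.24 with LPS, 1.89 with SeV, 2.08 with cGAMP and 1.92 with CpGB, beside medians over all genes between -0.09 and -0.03 for these ligands. It was 0.91 with HMW, 0.79 with PAM and 0.32 with Zymosan, beside medians over all genes of 0.02 or 0.03. None of the 42 combinations of member and ligand was called lower, against 9.6% of all genes with LPS, 5.13% with SeV, 5.91% with cGAMP, 6.27% with CpGB, 0.0212% with HMW, 5.89% with PAM and 1.82% with Zymosan. In edgeR none was lower at an unadjusted p under 0.05, and DESeq2 called none lower. All comparisons with Ctrl share its 3 libraries. Scaling by library size alone moved the centre of all genes (their median log2 change) by -0.36, taken as the median over 63 conditions, and RLE factors moved it by -0.16. Under either, 23 of the 25 calls were kept, without Trim30a with PAM and Trim26 with SeV. DESeq2 kept 21, losing those 2, Trim21 with SeV and Trim26 with CpGB. With libraries thinned to equal totals 15 were kept, and the calls lost were Trim21 with SeV, cGAMP and CpGB, all 4 of Trim26, Trim30a with PAM, Trim30d with HMW and Trim34a with LPS.

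**Figure D1:**
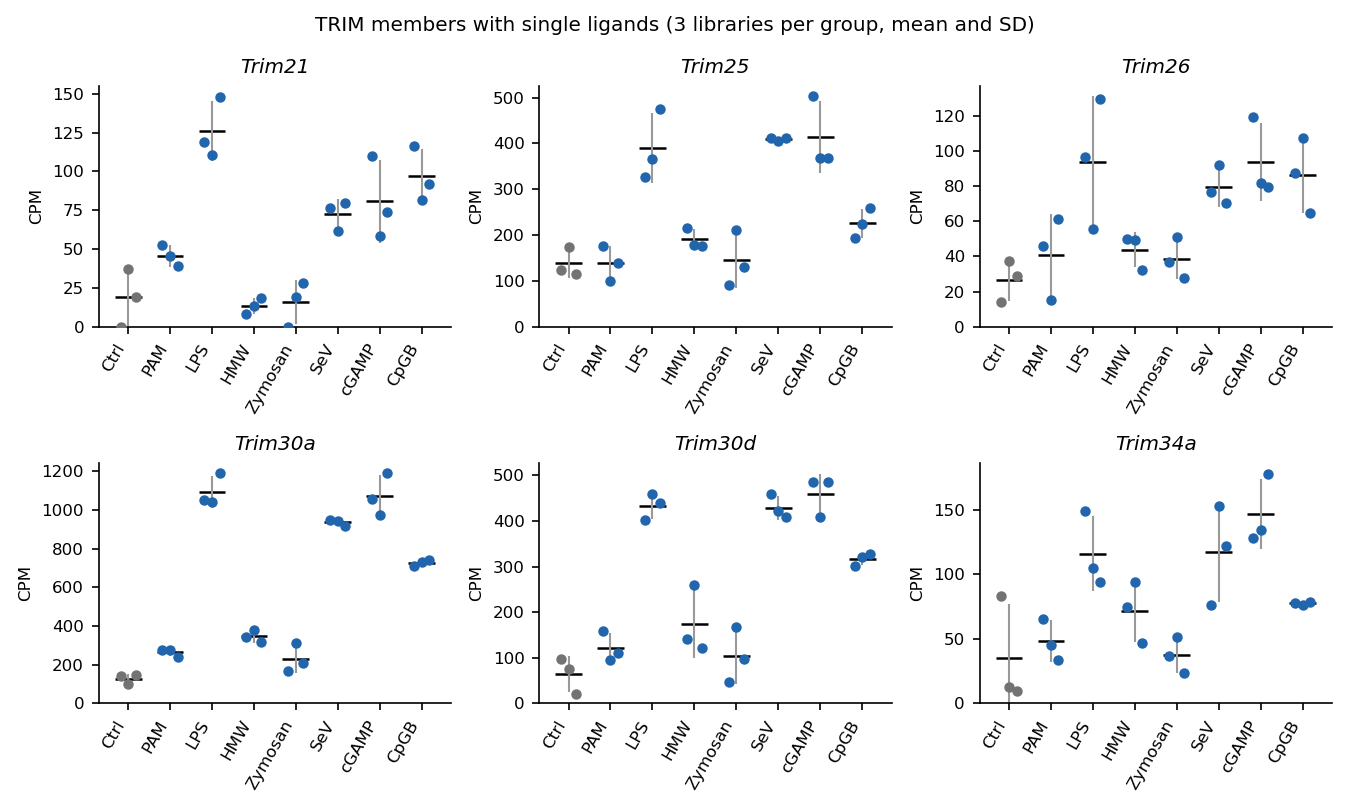
Level of each member in CPM (vertical axis, linear, its own range in each panel) in Ctrl (grey) and with each single ligand (blue). Points are libraries, 3 per group, and bars are the mean and SD, with the lower end cut at 0. LPS, SeV and cGAMP stand high in every panel, and the 3 Ctrl libraries of Trim34a spread from 9.60 to 83.1 CPM.

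The antibody receptor Trim21 had 0, 37.4 and 19.2 CPM in the 3 Ctrl libraries. It reached 119, 111 and 148 CPM with LPS and 116, 81.7 and 92.2 CPM with CpGB. With cGAMP the libraries held 110, 58.4 and 73.7 CPM, and with SeV 76.5, 61.3 and 79.7 CPM. Every library of these 4 groups lay above every Ctrl library, as did the 3 with PAM (52.5, 45.2 and 38.9 CPM), whereas those with HMW (8.32, 13.5 and 18.6 CPM) and Zymosan (0, 19.2 and 27.99 CPM) overlapped Ctrl. In the edgeR fit the log2 fold change for LPS was 2.67 (SE 0.55, adjusted p = 2.76e-05) and for CpGB 2.22 (SE 0.59, adjusted p = 0.00199). For cGAMP it reached 1.95 (SE 0.63, adjusted p = 0.0137) and for SeV 1.87 (SE 0.63, adjusted p = 0.0221), and the log2 value of 1.18 with PAM did not pass (adjusted p = 0.262). From the counts alone, the ratio of LPS to Ctrl was 6.58, with an exact 95% interval of 2.69 to 20.9 that covers counting error only. Without Ctrl replicate 2, the highest of the 3, the log2 values were 3.45 for LPS, 3.04 for CpGB, 2.73 for cGAMP and 2.66 for SeV. The cGAMP call was lost without Ctrl replicate 1 (log2 1.53, adjusted p = 0.0853), Ctrl replicate 3 (1.93, adjusted p = 0.0665) or cGAMP replicate 1 (1.72, adjusted p = 0.0573), in edgeR. The SeV call was lost without Ctrl replicate 1 (1.46, adjusted p = 0.121), Ctrl replicate 3 (1.86, adjusted p = 0.0915) or SeV replicate 3 (1.77, adjusted p = 0.0787).

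The RIG-I-linked ligase Trim25 was at 125, 175 and 115 CPM in Ctrl. SeV libraries held 411, 406 and 413 CPM, cGAMP libraries 504, 368 and 368 CPM and LPS libraries 328, 366 and 474 CPM. All 9 lay above Ctrl, with log2 fold changes of 1.58 (SE 0.25, adjusted p = 5.75e-08) for SeV, 1.56 (adjusted p = 7.6e-08) for cGAMP and 1.53 (adjusted p = 5.27e-08) for LPS in edgeR's test. CpGB libraries (194, 225 and 258 CPM) also lay above Ctrl, but the log2 value of 0.75 (adjusted p = 0.0321) stayed under the fold threshold; without Ctrl replicate 2 it was 1.02 (adjusted p = 0.0134) and called. HMW libraries (216, 179 and 177 CPM) lay just above Ctrl without passing (0.45, adjusted p = 0.695). Libraries with PAM (177, 101 and 139 CPM) and Zymosan (92.02, 211 and 131 CPM) overlapped those of Ctrl. The Zymosan value changed sign with the scaling, from 0.11 to -0.02 with RLE factors or library size alone.

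Trim26, tied to IRF3 and NEMO, was low in Ctrl, at 13.9, 37.4 and 28.8 CPM. It stood at 96.8, 55.4 and 129.8 CPM with LPS, at 119, 81.8 and 79.8 CPM with cGAMP, at 87.3, 107 and 64.6 CPM with CpGB and at 76.5, 91.97 and 70.4 CPM with SeV. Each of these 12 libraries exceeded all 3 Ctrl libraries. The log2 fold changes were 1.79 (SE 0.50, adjusted p = 0.00235), 1.71 (adjusted p = 0.00773), 1.62 (adjusted p = 0.0114) and 1.497 (adjusted p = 0.0311) in the same order, by edgeR. Libraries with PAM (45.9, 15.1 and 61.1 CPM), HMW (49.9, 49.3 and 32.5 CPM) and Zymosan (36.8, 51.2 and 27.99 CPM) overlapped Ctrl. Only the cGAMP call held without any 1 library, and it was lost without replicate 1 of every group (1.36, adjusted p = 0.131) and with thinned libraries (1.67, adjusted p = 0.104). Thinning lowered the LPS value to 0.98 (adjusted p = 0.458) and the CpGB value to 0.91 (adjusted p = 0.56). Without LPS replicate 3 the LPS value was 1.41 (adjusted p = 0.0526), and the CpGB value missed the threshold without CpGB replicate 2 (1.38, adjusted p = 0.0764), Ctrl replicate 1 (1.45, adjusted p = 0.0518) or Ctrl replicate 3 (1.68, adjusted p = 0.0506). The SeV value missed it without Ctrl replicate 1 (1.30, adjusted p = 0.117), Ctrl replicate 3 (1.55, adjusted p = 0.0969) or SeV replicate 2 (1.39, adjusted p = 0.0835).

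Trim30a, the NF-kappaB brake, had 139, 99.8 and 144 CPM in Ctrl and rose with 6 of the 7 ligands. LPS libraries held 1049.6, 1042 and 1190.2 CPM, cGAMP libraries 1055, 976 and 1191 CPM, SeV libraries 946, 943 and 919 CPM and CpGB libraries 708, 730.1 and 742 CPM. The log2 fold changes were 3.09 (SE 0.20, adjusted p = 3.88e-34) with LPS, 3.06 (adjusted p = 7.78e-33) with cGAMP, 2.86 (adjusted p = 7.76e-29) with SeV and 2.50 (adjusted p = 9.8e-23) with CpGB in edgeR's test. Every library with any ligand lay above every Ctrl library for this gene, including HMW (341, 381 and 316 CPM), PAM (276, 277 and 239 CPM) and Zymosan (166, 314 and 209.9 CPM). HMW gave 1.43 (SE 0.24, adjusted p = 3.04e-06) and PAM 1.03 (SE 0.25, adjusted p = 0.000881), while Zymosan at 0.86 (adjusted p = 0.0231) stayed under the fold threshold. The PAM value dropped under it without Ctrl replicate 2 (0.89, adjusted p = 0.0194) or PAM replicate 2 (0.99, adjusted p = 0.00515).

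Trim30d, the neighbouring relative, rose with 5 of the 7. Ctrl libraries held 96.96, 74.8 and 19.2 CPM, cGAMP libraries 486, 409 and 485 CPM, LPS libraries 402, 460.0 and 438 CPM, SeV libraries 459, 422 and 408 CPM and CpGB libraries 301, 322 and 327 CPM. None of these 12 libraries overlapped Ctrl. The log2 fold changes were 2.95 (SE 0.32, adjusted p = 2.2e-15) with cGAMP, 2.88 (adjusted p = 3.51e-15) with LPS, 2.84 (adjusted p = 4.08e-14) with SeV and 2.43 (adjusted p = 3.75e-10) with CpGB by edgeR. HMW (141, 260.1 and 121 CPM) gave 1.60 (SE 0.37, adjusted p = 0.00387), a call lost without Ctrl replicate 3 (1.07, adjusted p = 0.352) or HMW replicate 2 (1.14, adjusted p = 0.346). PAM (157, 95.5 and 111 CPM) gave 1.01 (adjusted p = 0.0702), which passed without Ctrl replicate 1 (1.44, adjusted p = 0.0316) or PAM replicate 2 (1.17, adjusted p = 0.0472). PAM and Zymosan libraries (46.0, 166 and 98.0 CPM with Zymosan) overlapped Ctrl.

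Trim34a, from the same cluster as the Trim30 genes, had an uneven control, with 83.1 CPM in Ctrl replicate 1 and 12.5 and 9.60 CPM in the others. cGAMP libraries (128, 134 and 178 CPM) and LPS libraries (149, 105.3 and 93.96 CPM) lay above all 3, while SeV libraries (76.5, 153 and 122 CPM) overlapped the highest. The log2 fold changes were 2.22 (SE 0.47, adjusted p = 6.89e-05) with cGAMP, 1.91 (SE 0.49, adjusted p = 0.00163) with SeV and 1.82 (SE 0.49, adjusted p = 0.00158) with LPS in edgeR's test. Without Ctrl replicate 1 they were 3.73 with cGAMP, 3.43 with SeV and 3.34 with LPS. Without Ctrl replicate 3 the LPS value was 1.27 (adjusted p = 0.0711), the SeV value 1.37 (adjusted p = 0.0717) and the cGAMP value 1.67, still called. CpGB libraries lay close together at 77.6, 76.6 and 78.4 CPM, just under the highest Ctrl library. Their log2 value of 1.29 (adjusted p = 0.0661) did not pass, and without Ctrl replicate 1 it was 2.83 (adjusted p = 0.00258). The libraries with PAM (65.6, 45.2 and 33.3 CPM), HMW (74.8, 94.2 and 46.5 CPM) and Zymosan (36.8, 51.2 and 23.3 CPM) overlapped Ctrl too. Over all members, 16 of the 25 calls held without any 1 library.

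Ordering Ctrl and the 7 single ligands by mean level placed LPS first for Trim21, Trim26 and Trim30a and cGAMP first for Trim25, Trim30d and Trim34a, and LPS, SeV, cGAMP and CpGB took the 4 highest places for every member. Most neighbours in that order did not differ beyond their spread: only 4 of the 42 steps passed an adjusted p under 0.05 in edgeR. For Trim25 the step from LPS (389 ± 76.1 CPM, SD, n = 3) to CpGB (226 ± 32.1 CPM) was 0.78 on the log2 scale (adjusted p = 0.00169). For Trim30a the step from CpGB (727 ± 17.2 CPM) to HMW (346 ± 32.9 CPM) was 1.07 (adjusted p = 2.93e-10), and that from Zymosan (229.7 ± 75.9 CPM) to Ctrl (127 ± 24.1 CPM) was 0.86 (adjusted p = 0.0231). For Trim30d the step from CpGB (317 ± 14.0 CPM) to HMW (174 ± 75.2 CPM) was 0.83 (adjusted p = 0.00148). Over all 21 comparisons of 2 single ligands, 71 of 126 member values differed in either direction, against 18.8% of all gene values, with 15 for Trim30a, 14 for Trim25, 13 for Trim30d, 10 each for Trim21 and Trim26 and 9 for Trim34a. The 71 became 37 with thinned libraries. Levels are not compared between genes, because UMI counts per gene are not per length.

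With pairs of ligands, 107 of 126 member values were called higher than Ctrl and none lower, against 13.7% of all gene values called higher and 8.44% lower. No member value was lower at an unadjusted p under 0.05 in edgeR, and DESeq2 called none lower. Trim30a and Trim30d were called with 20 of the 21 pairs, Trim21 with 18, Trim26 with 17 and Trim25 and Trim34a with 16, and all 6 members were called together with 14 pairs. Of the 19 values not called, 12 belonged to the 3 pairs made of PAM, HMW and Zymosan. PAM with Zymosan called 0 of 6 members (1 at an unadjusted p under 0.05 in edgeR, 0 by DESeq2), beside 8.11% of all genes higher with this pair, so the count is near the share of all genes. Trim30a passed the adjusted p there (log2 0.87, adjusted p = 0.0118 in edgeR, all 3 libraries above Ctrl) but stayed under the fold threshold. Trim25 was at 73.7, 162 and 115 CPM there, Trim26 at 0, 14.7 and 34.96 CPM and Trim34a at 42.1, 29.5 and 15.0 CPM, the lowest means of all 64 groups for these 3 genes. With triplets 200 of 210 values were called higher and none lower (none at an unadjusted p under 0.05 in edgeR, none by DESeq2), against 15.7% of all gene values called higher and 10.2% lower. Trim30a and Trim30d were called with 35 of 35 triplets, Trim25 with 34, Trim26 with 33, Trim34a with 32 and Trim21 with 31, and the 4 triplets in which Trim21 was not called all contained Zymosan.

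**Figure D2:**
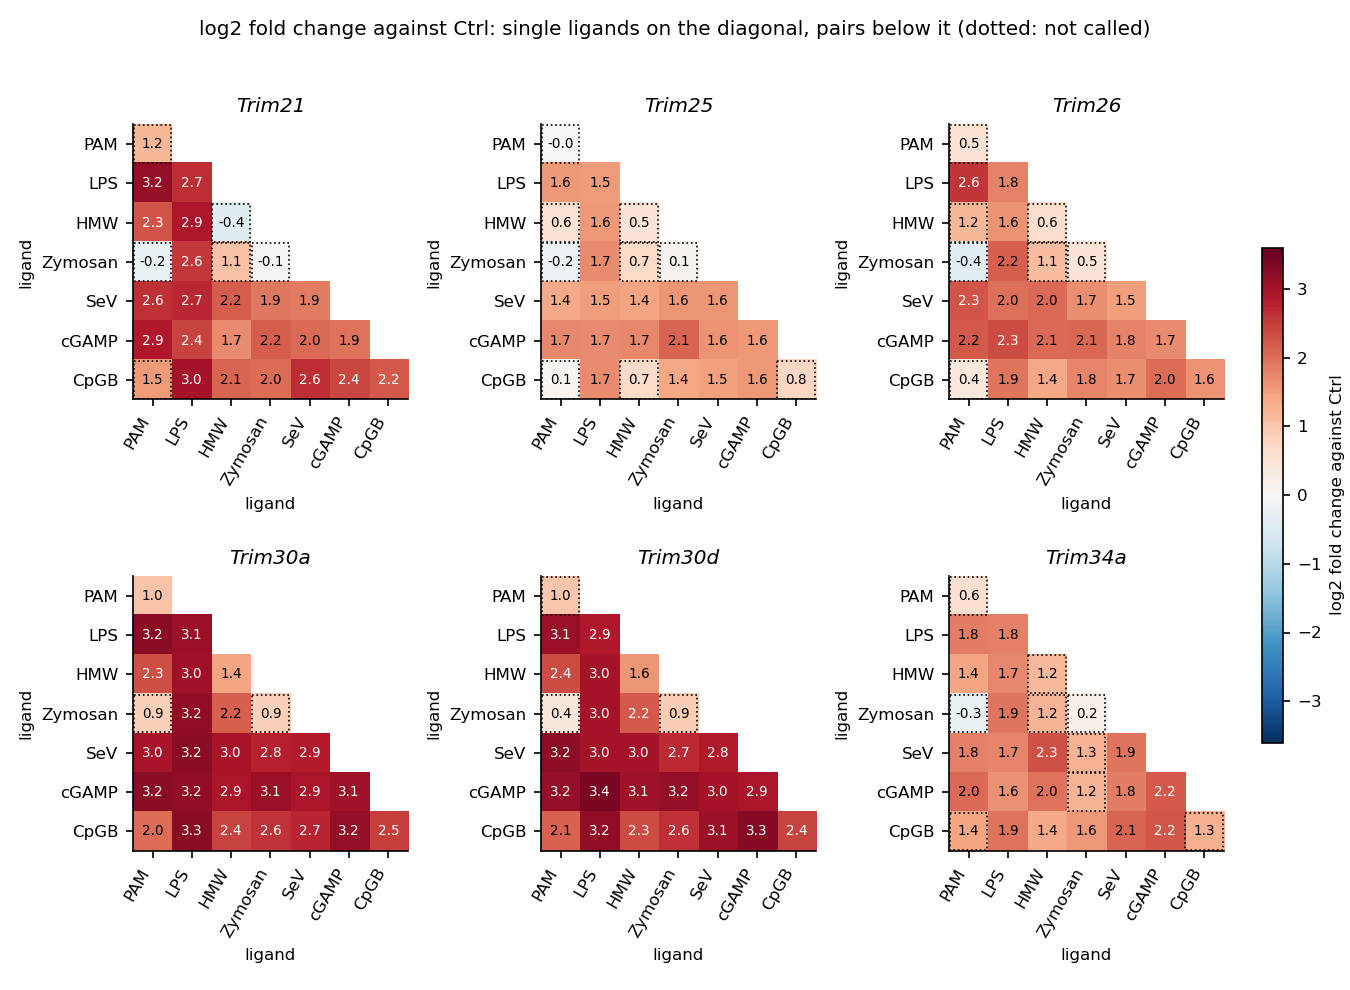
log2 fold change against Ctrl (colour and printed value) for each single ligand on the diagonal and each pair below it, 1 panel per member. Dotted cells were not called; they gather where PAM, HMW and Zymosan meet, and PAM with Zymosan is dotted in every panel.

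The median of the group means was higher with more ligands for each member, from Ctrl through singles and pairs to triplets, as a description. Groups with LPS, SeV, cGAMP or CpGB also made up a larger part of the pairs and triplets than of the singles. The part of ligand number and of ligand kind in the rise was not tested. For Trim30a the medians were 727 CPM with 1 ligand, 1006 CPM with 2 and 1115 CPM with 3. For Trim25 they were 226, 404 and 459 CPM, and for Trim21 72.5, 93.6 and 129 CPM. From 1 to 3 ligands the gain was smallest for Trim34a (77.5, 107 and 112 CPM), but not from 1 to 2. Only 2 of the 35 triplets had a Trim34a mean above its best single ligand. This compares with 28 for Trim26, 24 for Trim30d, 22 for Trim25, 20 for Trim30a and 18 for Trim21. With LPS alone and as medians of its pairs and triplets, Trim30a was at 1094, 1198 and 1175 CPM. Trim25 was at 389, 424 and 496 CPM in these groups. With cGAMP in place of LPS, Trim34a was at 147, 117 and 127 CPM. The highest means of all 64 groups were reached with LPS, cGAMP and CpGB together for Trim21 (204 ± 42.5 CPM, SD, n = 3) and Trim25 (675 ± 34.8 CPM). SeV, cGAMP and CpGB together gave the highest means of Trim26 (171 ± 57.0 CPM) and Trim34a (159 ± 36.1 CPM). Trim30a peaked with LPS, SeV and cGAMP (1314 ± 142 CPM) and Trim30d with PAM, LPS and cGAMP (674 ± 79.5 CPM). Groups without cGAMP came close: Trim21 stood at 195 ± 49.8 CPM with PAM, LPS and CpGB and Trim34a at 153 ± 34.3 CPM with HMW and SeV, within the spread of the highest.

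**Figure D3:**
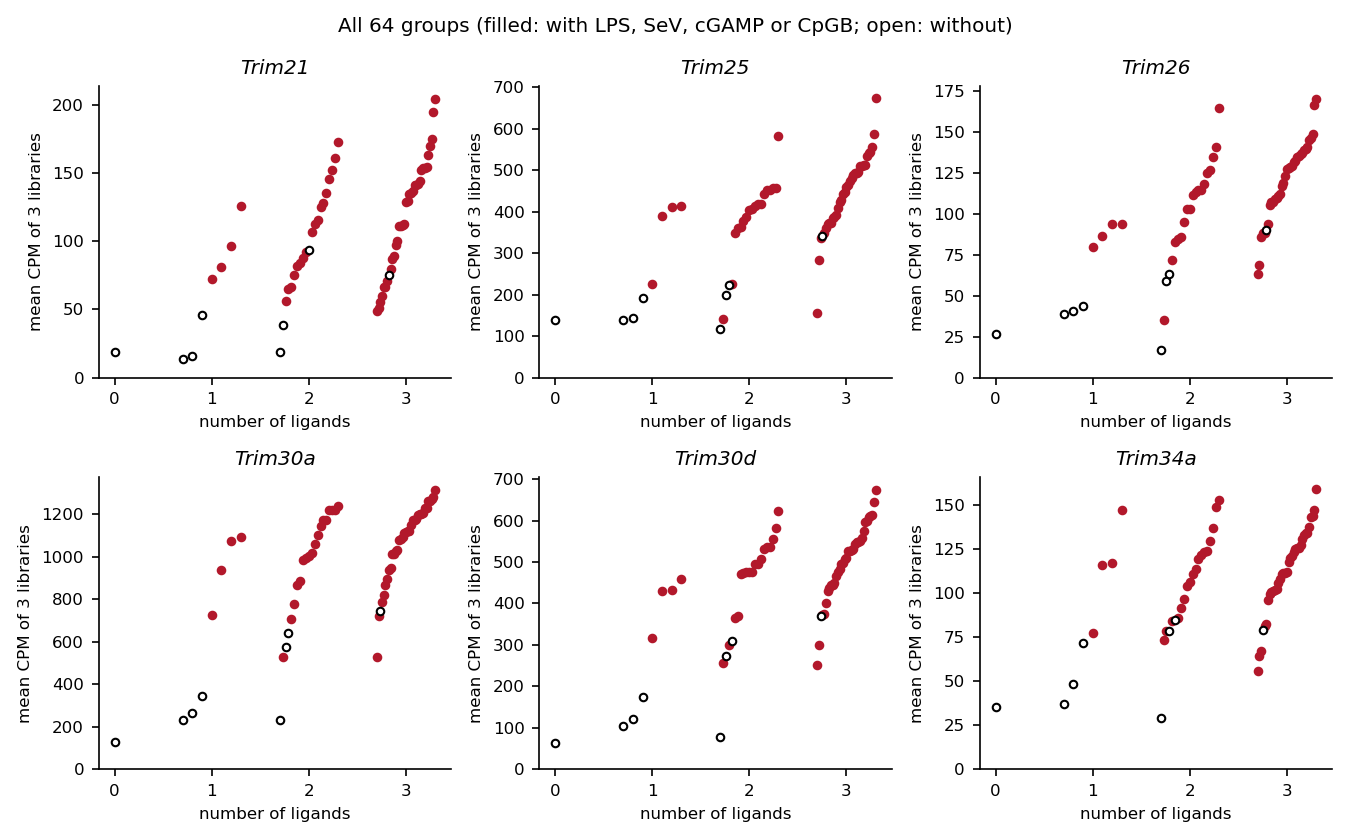
Mean level of each member in CPM (linear axis, 3 libraries per group) in all 64 groups, placed by the number of ligands and spread sideways by rank. Filled points hold LPS, SeV, cGAMP or CpGB (56 groups) and open points hold none of them (8 groups); for Trim30a 51 filled points lie above the highest open point, and for Trim21 36 do.

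Groups holding at least 1 of LPS, SeV, cGAMP and CpGB were set against the 8 without any of them, a split chosen after the single-ligand values were seen. Of the 56 groups with such a ligand, the mean exceeded the highest group without one in 51 for Trim30a, 50 for Trim25, 49 for Trim30d, 47 for Trim34a, 44 for Trim26 and 36 for Trim21. The lowest of the 56 was PAM with CpGB for Trim25 (141 CPM), Trim26 (35.3 CPM) and Trim30a (527 CPM). For Trim30d it was PAM, HMW and CpGB (252 CPM), for Trim34a PAM, Zymosan and CpGB (55.9 CPM) and for Trim21 PAM, LPS and Zymosan (48.5 CPM). The highest of the 8 without was PAM, HMW and Zymosan for Trim25 (340 CPM), Trim26 (90.0 CPM), Trim30a (745 CPM) and Trim30d (370 CPM).

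Adding a ligand to another was tested directly as the pair minus its single ligand, which does not use Ctrl. Of 252 member values, 82 were higher and 1 lower at an adjusted p under 0.05 in edgeR's test, against 6.8% and 3.82% of all gene values. With libraries thinned to equal totals the rises numbered 37 and the falls 0, and with library size alone the falls numbered 3. Of 36 values each, 24 rose when a ligand was added to HMW, 24 to Zymosan and 22 to PAM, beside 13.1%, 10.03% and 9.51% of all gene values. For the other starting ligands 10 rose with CpGB, 1 with SeV, 1 with cGAMP and 0 with LPS (2 at an unadjusted p under 0.05 in edgeR and 0 by DESeq2), beside 3.98%, 4.41%, 4.51% and 2.12%, so all genes too rose more often from HMW, Zymosan and PAM. Trim21 rose most from HMW (8.32, 13.5 and 18.6 CPM) to LPS with HMW (152, 143 and 160.1 CPM), by 3.34 on the log2 scale (SE 0.44, adjusted p = 2.43e-11). Trim25 rose from 92.02, 211 and 131 CPM with Zymosan to 531, 570 and 648 CPM with Zymosan and cGAMP, a log2 difference of 1.99 (SE 0.20, adjusted p = 5.97e-18). Trim26 rose from 45.9, 15.1 and 61.1 CPM with PAM to 173, 134 and 188 CPM with PAM and LPS (2.05, SE 0.33, adjusted p = 2.77e-08). In each of these 3 comparisons the libraries of the pair lay above those of the single ligand. The Trim21 call was lost with thinned libraries (1.92, adjusted p = 0.0735).

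The Trim30 and Trim34 members gave the same picture with Zymosan as the starting ligand. Trim30a went from 166, 314 and 209.9 CPM to 1138, 1174 and 1208 CPM when LPS was added (2.33 on the log2 scale, SE 0.15, adjusted p = 7.65e-34 in edgeR). Trim30d went from 46.0, 166 and 98.0 CPM to 490, 634 and 469 CPM with cGAMP added (2.28, SE 0.23, adjusted p = 6.72e-18). Trim34a went from 36.8, 51.2 and 23.3 CPM to 80.4, 138 and 139 CPM with LPS added (1.74, SE 0.38, adjusted p = 8.35e-05). Groups did not overlap in any of the 3, and the Trim34a call was lost with thinned libraries (1.47, adjusted p = 0.155). The 1 value that fell was Trim34a, from 128, 134 and 178 CPM with cGAMP to 73.5, 64.01 and 82.3 CPM with Zymosan and cGAMP. The log2 difference was -0.998 (SE 0.32, adjusted p = 0.0436), all 3 libraries lay below, and the call was lost in 5 of 9 alternatives.

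Pairs of HMW with PAM or Zymosan, ligands that alone called at most 2 members, were singled out after their values were seen. Trim30a stood at 583, 711 and 624 CPM with PAM and HMW together, above all libraries with PAM or HMW alone. The log2 difference was 1.28 (SE 0.15, adjusted p = 4.4e-12) from PAM and 0.89 (SE 0.15, adjusted p = 1.12e-07) from HMW in edgeR's test. HMW with Zymosan (496, 637 and 591 CPM) was likewise above Zymosan by 1.30 (SE 0.16, adjusted p = 9.57e-11) and above HMW by 0.73 (SE 0.15, adjusted p = 6.06e-05). Trim30d also passed in all 4 of these comparisons, with log2 differences of 1.35 (adjusted p = 1.9e-06) and 0.76 (adjusted p = 0.00297) for PAM with HMW and 1.34 (adjusted p = 1.74e-05) and 0.62 (adjusted p = 0.041) for HMW with Zymosan. Its libraries overlapped those of HMW in both pairs. For Trim21, PAM with HMW (70.2, 112 and 98.7 CPM) was above HMW by 2.69 (SE 0.48, adjusted p = 8.64e-07), while the 1.08 above PAM did not pass (adjusted p = 0.102). HMW with Zymosan (38.2, 23.6 and 54.7 CPM) did not pass for Trim21 against HMW (1.48, adjusted p = 0.0754) or Zymosan (1.12, adjusted p = 0.47). None of the 12 values of Trim25, Trim26 and Trim34a passed in these comparisons; 4 of them had an unadjusted p under 0.05. Over these 4 comparisons 6.59% of all gene values were higher, so a count of 0 among 12 is near the share of all genes. PAM with Zymosan, the remaining pair of these ligands, raised 0 of 6 members over PAM (median log2 -0.72) and 0 of 6 over Zymosan (-0.37). Beside 4.32% of all gene values higher, these counts too are near the share of all genes.

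Triplets were set against the 3 pairs they extend in the same way. Of 630 member values 102 were higher and 1 lower in edgeR's test, against 3.57% and 1.91% of all gene values. The rises numbered 43 with libraries thinned to equal totals, and the falls 3 with library size alone. Adding a ligand to PAM with Zymosan gave 27 rises of 30, to PAM with CpGB 17, to HMW with Zymosan 16, to PAM with HMW 15 and to HMW with CpGB 11, and each of the other 16 pairs gave at most 5. The shares of all gene values that rose were 9.56%, 6.99%, 8.96%, 9.11% and 6.91% for the 5 pairs in that order and 0.449% to 6.02% for the others. From PAM with Zymosan (84.2, 58.9 and 89.9 CPM), Trim30d rose to 667, 605 and 564 CPM with cGAMP added, a log2 difference of 2.94 (SE 0.24, adjusted p = 5.56e-24). Trim26 rose to 117, 108 and 145 CPM by the same addition (2.54, adjusted p = 2.12e-07) and Trim25 to 570.1, 548 and 512 CPM (2.16, adjusted p = 2.72e-18). Trim34a (214, 70.1 and 98.2 CPM) rose by 2.26 (adjusted p = 4.78e-06) with cGAMP and Trim30a (1063, 1064 and 1120 CPM) by 2.198 (adjusted p = 1.41e-28) with LPS. Trim21 rose by 2.62 (adjusted p = 1.99e-05) with SeV, to 69.7, 193 and 71.5 CPM. Without replicate 1 of every group that value was 3.35, and the Trim26 value was 3.602 without replicate 3 of every group. The triplet libraries lay above those of PAM with Zymosan in each of these 6 cases.

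The single fall among these comparisons was in Trim21, the antibody receptor. PAM with LPS held 118, 208 and 191 CPM, and PAM, LPS and Zymosan held 47.5, 56.4 and 41.7 CPM, all below. The log2 difference was -1.88 (SE 0.36, adjusted p = 7.42e-05 by edgeR); among the alternatives it was lost only with libraries thinned to equal totals (-1.17, adjusted p = 0.622).

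To summarise what each ligand added, the mean over the 15 pairs lacking it was subtracted from the mean over the 15 triplets holding it, a measure added after the data were seen. Of the 42 member values 25 were higher and 1 lower at an adjusted p under 0.05 in edgeR, against 15.3% and 12.6% of all gene values. LPS raised all 6 members, by 0.34 (Trim34a) to 0.75 (Trim21) on the log2 scale, and cGAMP raised all 6, by 0.28 (Trim21) to 0.73 (Trim25). SeV raised 5, CpGB 4 and HMW 3, and PAM raised 0 (3 at an unadjusted p under 0.05 and 0 by DESeq2). By ligand, the share of all genes raised was 23.9% with LPS, 23.9% with cGAMP, 12.5% with SeV, 11.3% with CpGB, 3.71% with HMW and 14.5% with PAM. With Zymosan 17.2% were raised and 16.5% lowered, and of the 6 members 1 was raised and 1 lowered, a share near that of all genes. The 25 fell to as few as 17 under the alternatives. The HMW calls were lost in 2 of 9 alternatives for Trim25, 3 for Trim26 and 5 for Trim30a. The calls of Trim21 with cGAMP and Trim25 with CpGB were lost in 2 each, and those of Trim21 with SeV, Trim21 and Trim30d with CpGB and Trim34a with LPS and with cGAMP in 1 each. Zymosan raised Trim25 by 0.35 (SE 0.05, adjusted p = 2.22e-11), with all 15 comparisons above 0 and the call held in all 9 alternatives, and lowered Trim21 by -0.41 (SE 0.09, adjusted p = 8.59e-05), with 12 of 15 below 0. The Trim21 value missed the threshold with thinned libraries (-0.29, adjusted p = 0.254) and without replicate 2 of every group (-0.30, adjusted p = 0.055). The values of Trim26 (0.10), Trim30a (0.01), Trim30d (-0.02) and Trim34a (-0.13) with Zymosan did not pass.

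**Figure D4:**
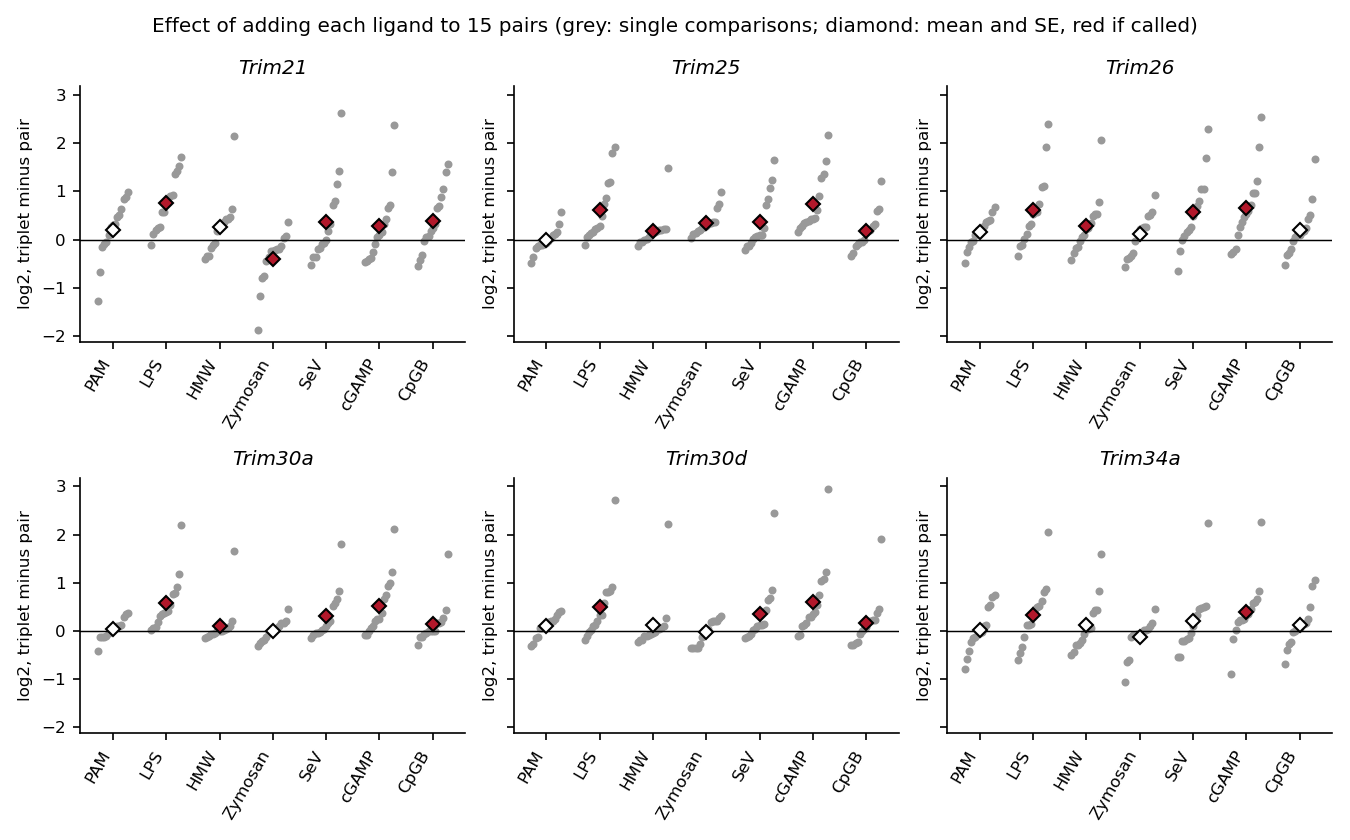
log2 difference between a triplet and the pair it extends (grey points, 15 per ligand and member, in order of size) and the mean effect with its SE (diamond, red where it passed). LPS and cGAMP diamonds lie above 0 in every panel, and Zymosan lies at 0.35 for Trim25 and -0.41 for Trim21.

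An interaction was computed on the log2 scale from the pair, its 2 ligands alone and Ctrl. It asks whether 2 ligands together did more or less than the sum of their log2 effects. A value of 0 means that the fold changes multiply. A gene raised by both ligands whose CPM gains only add therefore also scores below 0. A negative value thus does not say that CPM gains fell short of adding up. The shares of all genes include genes that neither ligand raised. Of 126 member values 28 were negative and 0 positive in edgeR's test, against 3.5% and 1.08% of all gene values. The negative calls numbered 17 with thinned libraries. No positive value reached an unadjusted p under 0.05, and DESeq2 called none positive. Trim30a had 12 negative calls of 21 pairs and Trim30d 8, Trim25 and Trim34a 3 each, Trim21 2 and Trim26 0 (6 at an unadjusted p under 0.05 and 0 by DESeq2). LPS with cGAMP gave 5 of the 28, LPS with SeV and SeV with cGAMP 4 each and LPS with CpGB 3, beside 9.05%, 7.9%, 7.75% and 9.66% of all genes negative for these pairs. All interactions share the 3 Ctrl libraries.

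The levels behind the smallest p-values are given here beside those of each ligand alone. Trim30a stood at 1199, 1190.1 and 1137 CPM with LPS and cGAMP together, beside 1094 ± 83.5 CPM with LPS and 1074 ± 109 CPM with cGAMP (SD, n = 3), and the interaction was -2.96 (SE 0.25, adjusted p = 3.27e-23 in edgeR). Trim30d stood at 509.9, 461 and 457 CPM with SeV and cGAMP, beside 429 ± 26.2 and 460.0 ± 44.1 CPM with each alone (-2.79, SE 0.39, adjusted p = 5.65e-10). Trim25 stood at 352, 390.1 and 418 CPM with LPS and SeV, beside 389 ± 76.1 and 410.0 ± 3.36 CPM (-1.60, SE 0.31, adjusted p = 1.94e-05).

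Trim34a stood at 61.3, 125 and 104 CPM with LPS and cGAMP (-2.39, SE 0.58, adjusted p = 0.00104 in edgeR), and Trim21 at 123, 125 and 90.3 CPM with the same pair (-2.17, SE 0.71, adjusted p = 0.0255). The Trim34a value was -3.95 without Ctrl replicate 1 and -1.85 without Ctrl replicate 3, called in both. The Trim21 call was lost without Ctrl replicate 1 (-1.79, adjusted p = 0.103) or Ctrl replicate 3 (-2.16, adjusted p = 0.0874), and the value was -2.99 without Ctrl replicate 2. For Trim26 the smallest p belonged to LPS with CpGB (-1.497, SE 0.61, adjusted p = 0.0888), which did not pass. The median excess of the pair over its larger single effect was 0.30 for Trim26, 0.21 for Trim30d, 0.20 for Trim21, 0.09 for Trim30a, 0.04 for Trim25 and 0.02 for Trim34a.

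**Figure D5:**
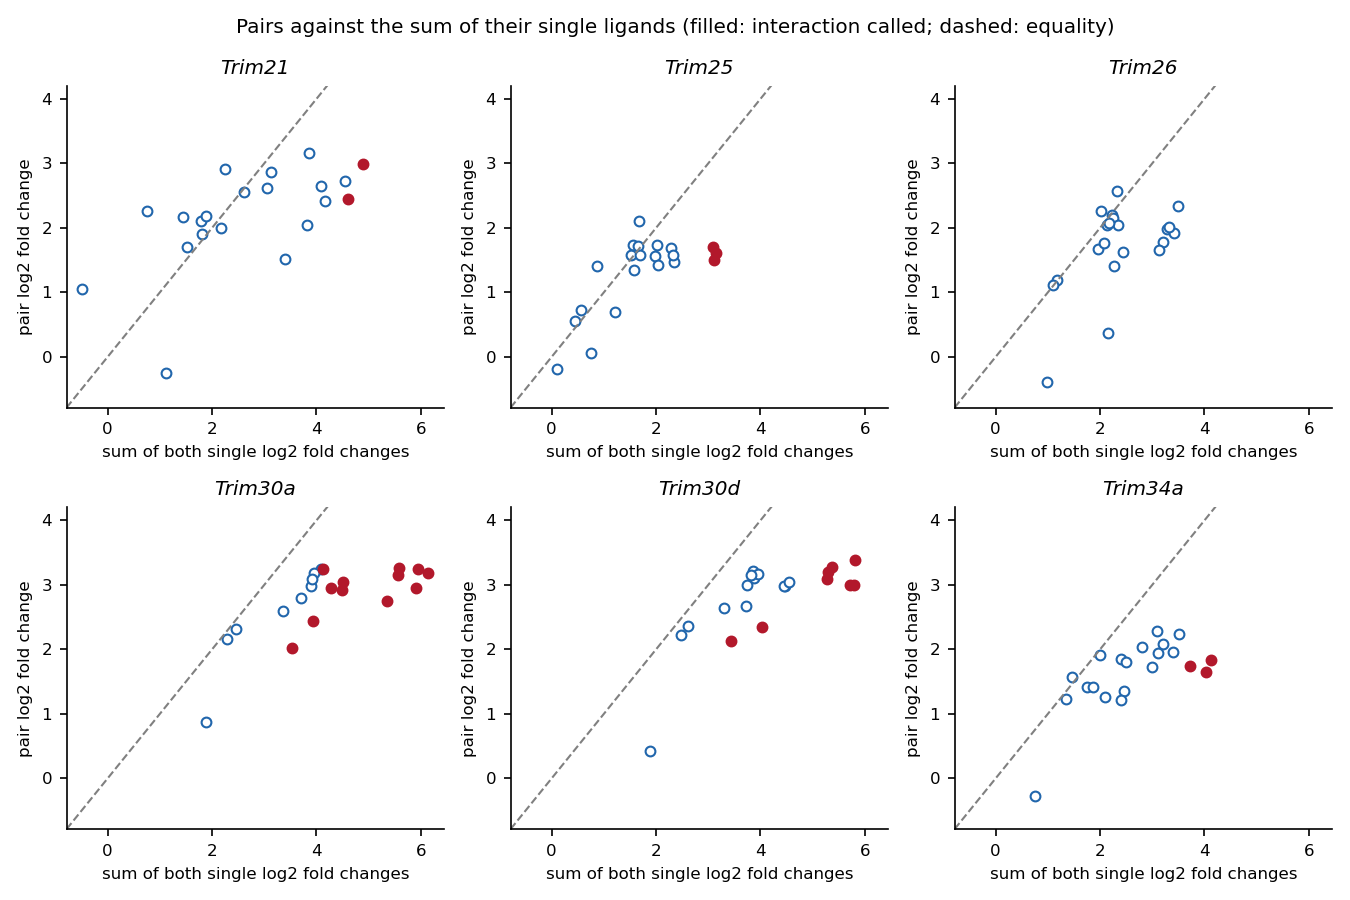
log2 fold change of each of the 21 pairs against Ctrl (vertical axis) plotted against the sum of the log2 fold changes of its 2 single ligands (horizontal axis), 1 panel per member. The dashed line is equality and filled points are called interactions; the filled points, 12 for Trim30a and 8 for Trim30d, lie below the line.

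Across the 64 group means (log2 CPM), Pearson's r between members ran from 0.642 (Trim21 with Trim25) to 0.974 (Trim30a with Trim30d), as a description over groups that share ligands and library depth. Trim30a was most like Ifi47 (r = 0.980), an interferon-induced GTPase, followed by the peptide transporter gene Tap1, Parp14, Rtp4 and Herc6. Trim30d was most like Parp12 (0.975), ahead of Trim30a, and Trim34a most like Trim30d (0.882). How reads shared by Trim30a and Trim30d were counted is not given, and their part in this likeness was not tested. Trim26 was most like Nmi (0.918) and Trim25 like March5 (0.936), with the interferon-induced genes Ifit2 and Rsad2 next. Trim21 was most like AW112010 (0.900), followed by the costimulatory receptor gene Cd40 and Vcan. These lists depended on the measure: with Spearman's rho, 3 of the 5 were shared for Trim21, 2 for Trim34a, 1 for Trim26 and 0 for Trim25, Trim30a and Trim30d.

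Of the 26 tested genes on a list of RNA and DNA sensing, ubiquitin and interferon signalling, 16 were called higher with LPS, 15 with SeV, 15 with cGAMP, 14 with CpGB, 7 with PAM, 4 with HMW and 3 with Zymosan, beside 14.6%, 10.5%, 11.7%, 10.8%, 8.01%, 0.953% and 4.43% of all genes in that order. Ddx58, which encodes the sensor RIG-I of the Trim25 pathway, rose from 56.1 ± 18.4 CPM in Ctrl to 650.0 ± 23.0 CPM with SeV (log2 3.45, SE 0.29, adjusted p = 5.19e-23). It rose as well with LPS (log2 3.45), cGAMP (3.31), CpGB (3.05), HMW (1.70) and PAM (1.29). Rnf135, another ligase of RIG-I, rose with LPS (1.78, adjusted p = 0.0175) and cGAMP (1.70, adjusted p = 0.0379), and Zc3hav1, which encodes ZAP, with LPS (1.77, adjusted p = 0.00296), SeV (1.59, adjusted p = 0.0185) and CpGB (1.40, adjusted p = 0.0437), by edgeR. Tab2, the TRIM30a target, rose with PAM, LPS, SeV, cGAMP and CpGB, by 1.43 to 1.94. In Ctrl, Tab2 was at 34.4 ± 36.8 CPM, Rnf135 at 17.9 ± 15.6 CPM and Zc3hav1 at 27.6 ± 19.4 CPM, so their folds rest on few molecules. The values of Irf3 (log2 -1.14 to 0.00) and of the ubiquitin-conjugating gene Ube2n (-0.76 to -0.15) did not pass with any single ligand.

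Among the 59 other TRIM symbols in the table only 11 were tested. At most 3 were called higher with any single ligand (LPS and cGAMP, beside 14.6% and 11.7% of all genes) and at most 2 lower (SeV and CpGB, beside 5.13% and 6.27%), counts too small to set apart from those shares. Trim12a was at 7.82 ± 7.10 CPM in Ctrl and 84.7 ± 22.4 CPM with cGAMP (adjusted p = 0.000124), and Trim30b, which shares sequence with Trim30d, at 4.62 ± 8.00 and 55.4 ± 8.72 CPM (adjusted p = 0.00267 in edgeR). No fold is given for either, because their Ctrl libraries hold so few UMIs. Trim8 fell with PAM, LPS, SeV, cGAMP and CpGB, most with cGAMP, from 101 ± 12.3 to 16.3 ± 15.4 CPM (log2 -2.62, SE 0.58, adjusted p = 0.000123).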

How the data were processed

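Per the labels' protocols, RNA was reverse transcribed with template switching, pooled, amplified, tagmented and sequenced on an Illumina instrument. The authors deposited raw UMI counts, whole numbers listed by gene symbol and not normalized. The submitters' processing notes name BWA 0.7.15 and mm10; the annotation, UMI collapsing and treatment of reads with several matches are not given in the sources used here. Groups came from the titles and ligand labels.

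Analysis used edgeR 4.0.16 in R 4.3.3. filterByExpr left 4720 of 23481 genes, holding 95.7% of UMIs, and these were scaled by TMM and fitted with 1 coefficient per group over all libraries (128 residual degrees of freedom; biological coefficient of variation 10.3%). Contrasts used the quasi-likelihood F-test with Benjamini-Hochberg adjustment within each contrast. Calls against Ctrl needed an adjusted p under 0.05 and a log2 fold change of 1 or more in size, and all other calls the adjusted p alone. CPM use TMM-scaled library sizes, and each SD is over 3 libraries. Total UMIs per library set the counting precision. Counting ratios carry exact 95% intervals. Replicate libraries correlated at 0.817 to 0.952 and no group held identical libraries.

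Besides single-ligand values, the text names for each member its highest and lowest group, its largest called rise and fall in pairs and triplets, its interaction with the smallest p, and the 5 genes most like it by Pearson's r of group mean log2 CPM (prior count 2). Members and lists were chosen with earlier results of these data known. Alternatives were RLE factors, library size alone, no filter, thinned libraries, DESeq2 1.42.0, a replicate block and leaving out libraries. Promoters come from RefSeq GRCm38.p6 and shared 50-base stretches from the annotated transcripts. Adgre1, Ly6g and Trac were not used here, and protein sequences were not used here.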

Additional observations from a re-analysis of the deposited data

Results flagged for a closer look

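The log2 effect of a ligand on a member differed with and without another ligand in 5 named cases. Each was tested as an interaction in edgeR (pair minus both single ligands plus Ctrl, log2 scale, 3 libraries per group). The value was -2.96 for Trim30a with LPS and cGAMP, -2.79 for Trim30d with SeV and cGAMP, -2.39 for Trim34a with LPS and cGAMP, -2.17 for Trim21 with LPS and cGAMP and -1.60 for Trim25 with LPS and SeV. They were named for having the smallest p of each member among 21 pairs, and all 5 share the Ctrl libraries. The Trim34a value missed the threshold without replicate 3 of every group (-2.01, adjusted p = 0.066) and with libraries thinned to equal totals (-2.15, adjusted p = 0.183). The Trim25 value missed it with thinning (-1.19, adjusted p = 0.143). The Trim21 value missed it in 5 alternatives, with an adjusted p of up to 0.311. Over all alternatives the values ran from -3.95 to -1.85 for Trim34a and from -3.40 to -1.66 for Trim21.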

How the results depend on the processing

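Thinning to equal totals took every library to the smallest total, 46564 UMIs, beside a median of 171616.5, so it also removed most counts of a typical library. With it the calls with single ligands fell from 25 to 15 and differences between 2 single ligands from 71 to 37. Rises in pairs fell from 82 to 37, rises in triplets from 102 to 43 and negative interactions from 28 to 17. The single fall in a pair became 2 with RLE factors, DESeq2 or the replicate block, 3 with library size alone, 0 with thinning or without a filter and 0 to 1 when a replicate was left out. The single fall in a triplet became 3 with library size alone, 2 with DESeq2 and 1 to 2 with a replicate left out. The single lower mean effect of an added ligand became 2 with library size alone, 0 with thinning and 0 to 1 with a replicate left out. The cause was not tested.

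Of 630 single-ligand values under the alternatives, 546 kept direction and side of the threshold, 53 lost a call, 11 gained one and 20 changed sign, all 20 uncalled. With a library or replicate left out, the log2 value ran from -0.86 to 0.41 for Trim21 with HMW, -0.75 to 0.71 for Trim21 with Zymosan, -0.22 to 0.44 for Trim25 with PAM, -0.23 to 0.32 for Trim25 with Zymosan and -0.46 to 1.67 for Trim34a with Zymosan. Without a filter Trim21 with Zymosan was 0.11 and Trim25 with PAM 0.18; Trim25 with Zymosan was -0.0191 with RLE factors, -0.0243 with library size alone and -0.0188 with DESeq2.

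Replicate numbers did not meet the criterion for pairing, a correlation over 0.1 in every same-number pair of libraries. Deviations from group means correlated at 0.00828 for the same number and -0.00413 for different numbers, although 167 libraries (87.0%, against 33.3% if the numbers carried nothing) correlated best on average with those of their own number, a hint from the data and not the design. The replicate block kept all 25 single-ligand calls.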
